A study of Mus musculus with 7 samples.

Results

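The 7 sirtuin genes, Sirt1 to Sirt7, were followed together with Nampt, Nmnat1 and Parp1, which make or use the same cofactor, in regenerating mouse muscle. The 10 genes were taken by symbol from a table of 48820 gene identifiers, and each matched 1 row. All 10 had enough counts to be among the 16764 genes tested. Sirtuins are enzymes that remove acetyl and other acyl groups from proteins and split the cofactor NAD into nicotinamide each time they act. Nampt encodes the rate-limiting enzyme that turns nicotinamide back into nicotinamide mononucleotide, Nmnat1 encodes the nuclear enzyme that completes NAD from it, and Parp1 encodes the main enzyme that spends NAD on poly(ADP-ribose) at DNA breaks. In muscle stem cells, the availability of NAD and the activity of SIRT1 are known to change when the cells leave quiescence.

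RNA was sequenced from whole tibialis anterior (TA) muscle, a muscle of the shin, of male mice aged 7 weeks, at day 3 after BaCl2, a salt that destroys muscle fibres and starts their rebuilding. The 3 control libraries had the genotype WT; Pax7-CreERT2 and the 4 Sirt7 scKO libraries the genotype Sirt7fl/fl; Pax7-CreERT2, so both groups carried the recombinase. Pax7-CreERT2 is a drug-inducible recombinase made where Pax7 is expressed, that is in muscle stem cells, while the RNA came from every cell of the muscle. For the agent that induced it, the deleted part of Sirt7 and the time of deletion, the sources used here give nothing. The labels call the libraries of a group biological replicates without naming animals, so p-values measure the spread between these samples. Library totals ran from 5425095 to 7553137 counts, and 1 count stood for 0.131 to 0.189 CPM. CPM is the usual count per unit of library size, here taken over tested genes and scaled by TMM factors, and a log2 fold change is Sirt7 scKO over control. The labelled tissue was checked on markers of the cells it can hold. All 12 mature fibre genes were measured in every library, with a summed level of 2014 to 5278 CPM in control and 587 to 3443 CPM in Sirt7 scKO. The sum of 10 macrophage genes, among them Cd68 and Csf1r, was 11570 to 12220 CPM in control and 11070 to 13600 CPM in Sirt7 scKO. Lyz2 alone held 6567 to 8300 CPM of it. All 8 markers of regenerating fibres had a negative fold change, where 51.3% of all genes tested had a positive one. Of the 8, 6 had an unadjusted p under 0.05 (13.6% of all genes tested, in either direction), and none passed the adjusted threshold. The groups did not overlap in 1 of the 8, where 5.71% of all genes tested stood apart in that direction. By replicate number, the sum of the 8 was 895, 537 and 332 CPM in control and 239, 386, 369 and 298 CPM in Sirt7 scKO. Control replicate 1 was highest in each of the 8.

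None of the 10 genes passed the edgeR test between genotypes at an adjusted p of 0.05. Over all 16764 genes tested 0.131% passed, 0.101% higher and 0.0298% lower in Sirt7 scKO. DESeq2 and limma voom likewise called 0 of the 10. At an unadjusted p under 0.05 stood 2 of the 10, Sirt7 (lower) and Nampt (higher), where 13.6% of all genes tested did. The groups did not overlap in 1 of the 10, Sirt2, which was lower in Sirt7 scKO, where 5.71% of all genes tested did so in that direction 6.51% in the other and 12.2% in either. The fold change was positive in 3 of the 10 and in 51.3% of all genes tested. The median log2 fold change of the 10 was -0.017, and that of all genes tested was 0.007.

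**Figure D1:**
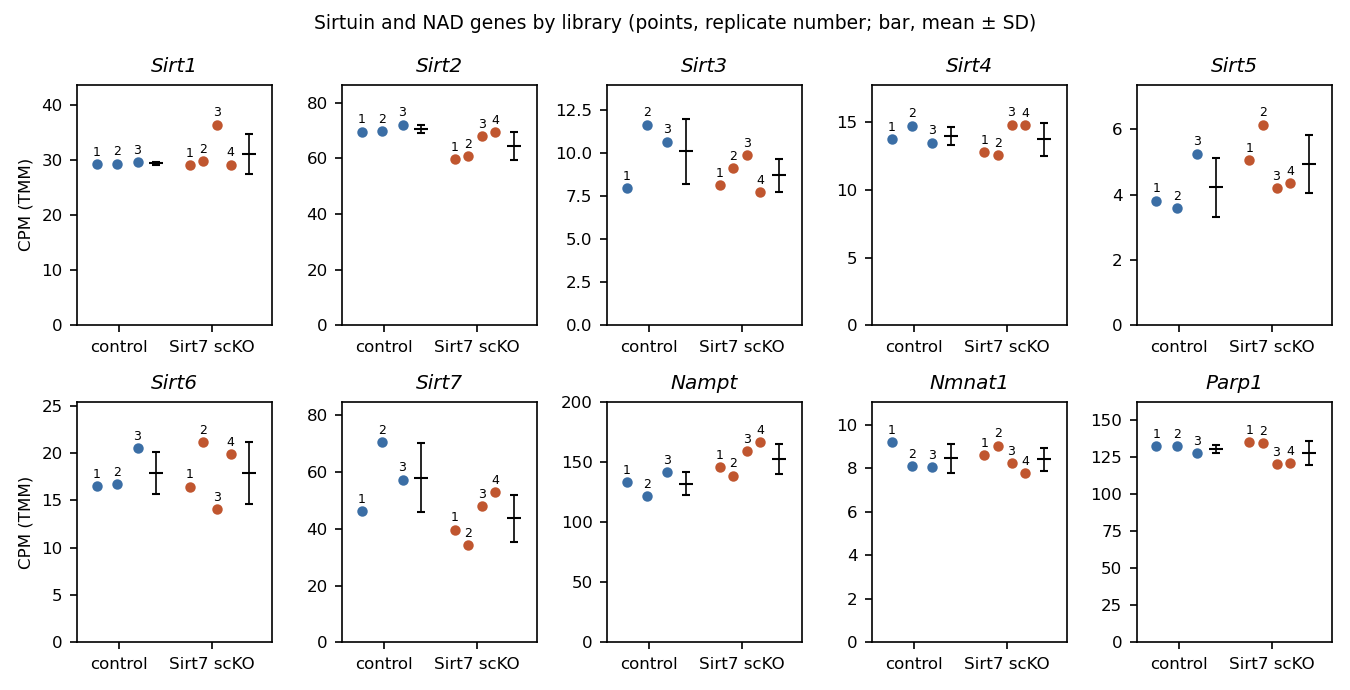
CPM of each of the 10 genes (vertical axes from 0) in the 3 control and 4 Sirt7 scKO libraries, with points numbered by replicate and bars for mean ± SD. Sirt7 spreads from 46.2 to 70.6 CPM in control and from 34.1 to 52.97 CPM in Sirt7 scKO, and in Sirt2 alone do the groups not overlap.

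Sirt7 encodes the sirtuin of the nucleolus, known for its part in transcription of ribosomal RNA genes and in DNA repair. It lies on the minus strand of GRCm38 chromosome 11 at 120618372 to 120625240 (ENSMUSG00000025138.14). The counts, in order of replicate number, were 266, 393 and 327 in control and 282, 261, 320 and 280 in Sirt7 scKO, and values per library keep this order throughout. Scaled for depth, these were 46.2, 70.6 and 57.3 CPM in control and 39.7, 34.1, 47.9 and 52.97 CPM in Sirt7 scKO. Control replicate 2 stood highest and Sirt7 scKO replicate 2 lowest, and the groups overlapped, because control replicate 1 lay below Sirt7 scKO replicates 3 and 4. The fitted ratio was 0.750 with a 95% interval of 0.588 to 0.955 (log2 fold change -0.42, edgeR adjusted p = 0.288; exact permutation on CPM, two-sided, p = 0.143, with 0.0286 the smallest it can give). Among all genes tested it ranked 1350 by p. Control replicate 2 and, less so, Sirt7 scKO replicate 2 carried much of the difference. Without control replicate 2 the log2 fold change was -0.25 (edgeR adjusted p = 0.713). Without Sirt7 scKO replicate 2 it was -0.31 (edgeR adjusted p = 0.450), and without control replicate 1 it was -0.56 (edgeR adjusted p = 0.356). In whole muscle, fewer cells of a type and less RNA per cell cannot be told apart. The 8 muscle stem cell markers summed to 507 to 723 CPM in control and 447 to 592 CPM in Sirt7 scKO, and none of the 6 that were tested passed. At an unadjusted p under 0.05, 1 of these 6 was higher and 2 were lower in Sirt7 scKO, against 13.6% of all genes tested in either direction. The fold change was positive in 2 of the 6 (median -0.202) and in 51.3% of all genes tested. Myf5, 1 of these 2, was singled out because its groups stood apart. It had 10.4 to 11.1 CPM in control and 11.35 to 18.05 CPM in Sirt7 scKO. Of all genes tested, 6.51% stood apart in that direction. Most of the summed level came from Myod1 (199 to 265 CPM in control, 168 to 238 CPM in Sirt7 scKO) and Itga7 (187 to 286 and 165 to 207 CPM). Pax7 had 11.99, 11.86 and 10.7 CPM in control and 12.8, 15.4, 13.9 and 7.57 CPM in Sirt7 scKO. Calcr and Chrdl2, which mark quiescent cells, had at most 4 counts in a library. The part of these markers in the Sirt7 level was not tested.

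Sirt7 also varied within genotypes more than most genes of similar level. Its coefficient of variation (SD over mean) was 21% in control and 19.2% in Sirt7 scKO, where counting error alone gives 5.52% and 5.92%. Of 3690 tested genes with a mean level within 1.5-fold of that of Sirt7, 94.9% had a smaller coefficient of variation pooled over both groups. For the other 9 genes, that share ran from 2.02% (Nmnat1) to 69.9% (Sirt6). The annotation of Sirt7 also differs from that of the other 9. Of its 11 annotated transcripts 6 are retained-intron models, so that 74.9% of the span of the gene counts as exon, against 8.5% (Sirt1) to 46.3% (Sirt6) for the other 9. Where such models were used for counting, which the sources used here do not say, reads from most of its introns enter its count. Its 5′ end shares 124 bases with the 3′ end of Mafg, a gene on the same strand.

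The genes nearest to Sirt7 in their course over the 7 libraries were Flt3l, Gm17178 and Mir671, measured as the root mean square difference of centred log2 CPM among 11892 genes with a mean of at least 10 CPM. The differences were 0.053, 0.071 and 0.102. Flt3l, the gene of a growth factor of dendritic cells, had 11.99, 17.96 and 14.5 CPM in control and 11.1, 8.50, 12.4 and 13.2 CPM in Sirt7 scKO. It too was highest in control replicate 2 and lowest in Sirt7 scKO replicate 2. Having been chosen for nearness to Sirt7 over these same libraries, it gives no separate observation. All 3 overlap other genes, so that their counts can hold reads of those genes. Flt3l overlaps Gm45713 on the same strand, Gm17178 is an antisense gene within Aspscr1 on chromosome 11, and Mir671 lies within Chpf2 and overlaps Smarcd3.

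Of the other nuclear and cytosolic sirtuins, Sirt1, Sirt2 and Sirt6, none passed the test, and every interval of the ratio included 1. Sirt1 encodes a nuclear deacetylase of histones, p53 and FOXO factors (chromosome 10, 63319005 to 63381704). It had 29.2, 29.3 and 29.6 CPM in control and 28.98, 29.7, 36.4 and 29.1 CPM in Sirt7 scKO. The 3 control libraries were nearly equal and 1 Sirt7 scKO library, replicate 3, stood above the rest. The fitted ratio was 1.06, with a 95% interval of 0.893 to 1.25 (edgeR adjusted p = 0.802).

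Sirt2 encodes a mainly cytoplasmic deacetylase, known for acting on tubulin (chromosome 7, 28766735 to 28788661). It had 69.7, 69.9 and 72.2 CPM in control and 59.7, 60.7, 67.96 and 69.4 CPM in Sirt7 scKO. Every Sirt7 scKO library lay below every control library, but Sirt7 scKO replicate 4 and control replicate 1 nearly met. The fitted ratio was 0.912, with a 95% interval of 0.797 to 1.04 (edgeR adjusted p = 0.549; exact permutation, two-sided, p = 0.143). Sirt6 encodes a chromatin-bound deacylase that acts in DNA repair and restrains genes of glycolysis (chromosome 10, 81621785 to 81627797). It had 16.5, 16.7 and 20.5 CPM in control and 16.5, 21.2, 14.1 and 19.9 CPM in Sirt7 scKO. The groups overlapped over most of their range, and the ratio was 0.999 with a 95% interval of 0.784 to 1.27 (edgeR adjusted p = 0.998).

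Of the mitochondrial sirtuins Sirt3, Sirt4 and Sirt5 none passed the test, and each was measured with at most 99 counts in a library. Sirt3, the main deacetylase of the mitochondrial matrix (chromosome 7, 140863666 to 140882309), had 7.99, 11.7 and 10.7 CPM in control and 8.16, 9.16, 9.88 and 7.76 CPM in Sirt7 scKO. Control replicate 1 lay inside the Sirt7 scKO range, and the ratio was 0.867 (95% interval 0.657 to 1.14, edgeR adjusted p = 0.665). The log2 fold change of -0.21 became -0.36 without control replicate 1 and -0.092 without control replicate 2. On the opposite strand Ric8a and Psmd13 cover 7% and 5.73% of its exon bases, and counts without strand cannot separate such reads. Sirt4, known as a regulator of glutamate dehydrogenase (chromosome 5, 115478010 to 115484725), ran from 13.5 to 14.7 CPM in control and from 12.6 to 14.8 CPM in Sirt7 scKO. Its ratio was 0.980 (95% interval 0.794 to 1.21, edgeR adjusted p = 0.947). Sirt5, which removes succinyl and malonyl groups (chromosome 13, 43365496 to 43395203), was the lowest of the 10, with 20 to 47 counts per library. Its level was 3.82, 3.59 and 5.26 CPM in control and 5.06, 6.15, 4.19 and 4.35 CPM in Sirt7 scKO, with overlapping groups. The ratio was 1.18, and its 95% interval of 0.809 to 1.71 covers differences in both directions at this depth. Its log2 fold change of 0.23 became 0.13 without control replicate 2, 0.11 without Sirt7 scKO replicate 2 and 0.43 without control replicate 3.

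**Figure D2:**
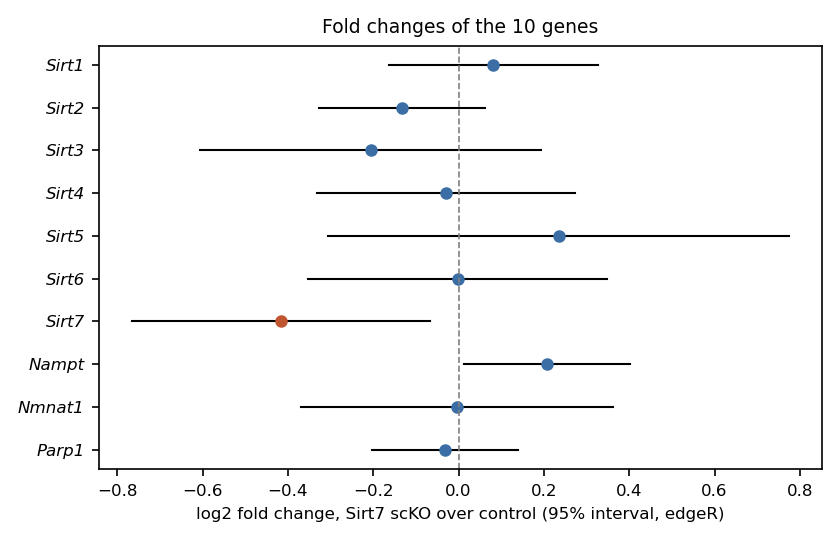
Log2 fold change of Sirt7 scKO over control (horizontal axis) for each of the 10 genes, with points for the edgeR estimate and lines for its 95% interval, unadjusted for the number of genes. The intervals of Sirt7 (-0.77 to -0.07) and Nampt (0.012 to 0.40) lie on 1 side of 0, and neither gene passed after adjustment over all genes tested.

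Among the 3 genes of NAD supply and use, Nampt was the 1 whose interval excluded 0. Besides its role inside cells, NAMPT is released by macrophages and in zebrafish is known to stimulate muscle stem cells. Nampt (chromosome 12, 32819545 to 32853349) had 133, 122 and 141 CPM in control and 146, 139, 159 and 167 CPM in Sirt7 scKO. Control replicate 3 lay above Sirt7 scKO replicate 2, and otherwise the groups stood apart. The ratio was 1.15 with a 95% interval of 1.01 to 1.32 (edgeR adjusted p = 0.335; exact permutation, two-sided, p = 0.114). The 10 macrophage markers, 1 of the lists fixed for cell types, held 1 gene higher and 1 lower at an unadjusted p under 0.05. Of all genes tested, 13.6% did so in either direction. None of the 10 passed the adjusted threshold. Their summed level was 11630, 12220 and 11570 CPM in control and 11070, 11360, 11610 and 13600 CPM in Sirt7 scKO. Sirt7 scKO replicate 4 was highest in both this sum and Nampt, while control replicate 2 had the next highest sum and the lowest Nampt. Lyz2 held most of the sum, with 8300 CPM in Sirt7 scKO replicate 4. In that library Lyz2, Csf1r, Adgre1, Mrc1, Cd14 and C1qb were the highest of all libraries. Cd68 (672.6 CPM) and Itgam (216.6 CPM) were the lowest there, and C1qa and Mertk lay between. The part of this list in the Nampt level was not tested. Nup160, Brox and Gtf2h1 were nearest to Nampt in their course over the libraries, with root mean square differences of 0.038, 0.039 and 0.039 on the log2 scale. Brox overlaps Aida on the opposite strand, and Gtf2h1 overlaps the pseudogene Gm9392.

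Nmnat1 (chromosome 4, 149467572 to 149485202) had 9.21, 8.08 and 8.06 CPM in control and 8.58, 9.03, 8.23 and 7.76 CPM in Sirt7 scKO. The groups overlapped, and the ratio was 0.997 (95% interval 0.774 to 1.29, edgeR adjusted p = 0.993). Parp1 (chromosome 1, 180568924 to 180601254) had 132, 132 and 127 CPM in control and 135, 134, 120.2 and 120.5 CPM in Sirt7 scKO. Sirt7 scKO replicates 1 and 2 lay above all control libraries and replicates 3 and 4 below them. Its interval was the narrowest of the 10, with a ratio of 0.978 (95% interval 0.868 to 1.10, edgeR adjusted p = 0.890).

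Levels of different genes were compared per kilobase of annotated exon. Nampt was highest, with a median over the 7 libraries of 27.97 CPM per kb (range 24.1 to 33.0), followed by Parp1 with 24.95 (range 22.7 to 25.5), and these ranges overlapped. Among sirtuins the order was Sirt2 (median 13.8), Sirt7 (9.31), Sirt6 (5.999), Sirt4 (5.72), Sirt1 (5.49), Sirt3 (1.53) and Sirt5 (0.714), in CPM per kb. Sirt2 and Sirt7 overlapped in range, but with this length Sirt2 was the higher of the pair in every library. In control replicate 2 they nearly met, at 13.88 and 13.71. Each neighbouring pair from Sirt7 down to Sirt1 also overlapped and changed order between libraries, so the order of these genes is not resolved. Nmnat1, at 2.71 CPM per kb, lay between Sirt1 and Sirt3 without overlap with either. Against all genes tested, Nampt and Parp1 stood at percentiles 83.4 and 80.7, Sirt7 at 60, and Sirt3 and Sirt5 at 14.5 and 5.78.

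The choice of length moved this order. With exons of coding transcripts alone, Parp1 (32.8 CPM per kb), Nampt (31.2), Sirt2 (30.8) and Sirt7 (24.6) formed the upper group. Only the length changed: the counts remained those of the whole gene and can hold reads from its other exons. Sirt3 moved from 1.53 to 5.31 CPM per kb, above Nmnat1, because 1726 of its 5973 exon bases belong to coding transcripts. Sirt5 stayed lowest with both lengths, at 0.714 and 1.14 CPM per kb. Per kb of all exons, Sirt7 made up 21.4%, 28.7% and 23.9% of the summed sirtuin level in control and 20.05%, 16.7%, 21.5% and 22.95% in Sirt7 scKO. Sirt2 made up 29.05% to 33.0% of it in all 7 libraries.

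**Figure D3:**
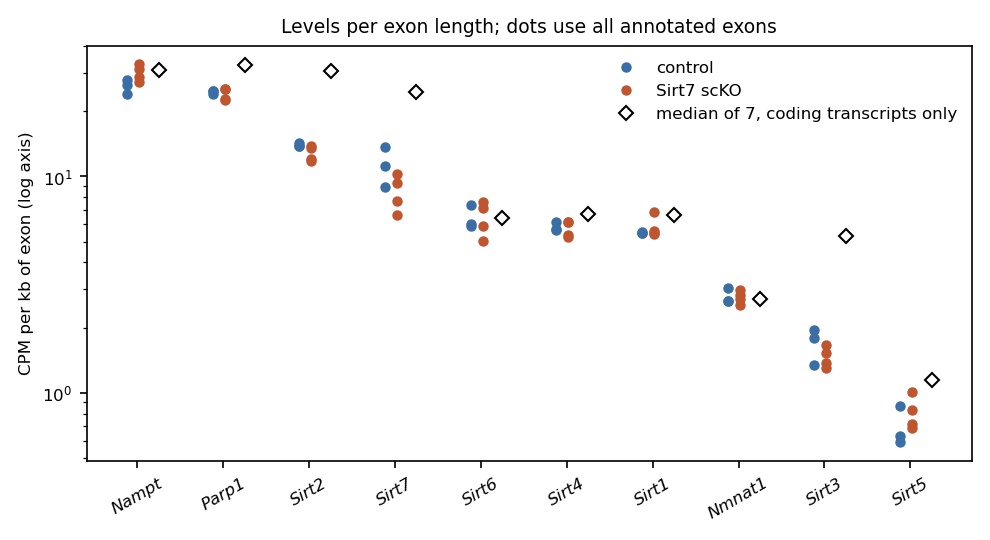
CPM per kb of exon (log axis) of the 10 genes in order of their median, with 1 dot per library of 3 control and 4 Sirt7 scKO libraries, and diamonds for the median when coding transcripts alone set the length. Nampt and Parp1 lead and Sirt5 is lowest with both lengths, while Sirt2, Sirt3 and Sirt7 move most between them.

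The starts of the genes with the highest and the lowest level per kb are shown with that of Sirt1, to set the levels beside the promoter sequence. Sequences are from RefSeq (GRCm38.p6), read 5′ to 3′ on the strand of the gene, limited to at most 150 bases upstream of the start that lie outside annotated exons. Capitals mark E-boxes (CACGTG), GC boxes (GGGCGG) and CCAAT boxes, each searched on both strands. The windows are chr12:32820185-32820334 (plus strand) for Nampt, chr1:180568741-180568890 (plus strand) for Parp1, chr10:63339051-63339200 (minus strand) for Sirt1 and chr13:43365346-43365495 (plus strand) for Sirt5.
Nampt: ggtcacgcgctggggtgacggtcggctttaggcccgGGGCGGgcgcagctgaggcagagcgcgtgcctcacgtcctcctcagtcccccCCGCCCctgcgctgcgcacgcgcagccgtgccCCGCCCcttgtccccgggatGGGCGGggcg
Parp1: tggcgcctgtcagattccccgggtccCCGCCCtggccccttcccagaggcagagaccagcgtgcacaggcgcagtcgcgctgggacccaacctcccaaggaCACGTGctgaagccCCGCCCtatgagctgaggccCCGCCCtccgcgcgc
Sirt1: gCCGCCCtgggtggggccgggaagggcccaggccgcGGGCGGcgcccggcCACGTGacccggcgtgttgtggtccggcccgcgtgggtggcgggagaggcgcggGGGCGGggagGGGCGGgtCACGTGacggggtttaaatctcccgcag
Sirt5: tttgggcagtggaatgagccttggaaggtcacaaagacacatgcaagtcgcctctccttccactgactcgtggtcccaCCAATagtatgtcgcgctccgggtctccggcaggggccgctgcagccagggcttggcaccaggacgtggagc
The window of Sirt1 holds 2 E-boxes and that of Parp1 holds 1, while 7.15% of 32851 RefSeq promoters of 300 bases (250 upstream, 50 downstream) hold an E-box. GC boxes, found in 35.7% of all promoters, occur 7 times in the full promoter of Sirt1, 5 times in that of Nampt and 4 times in that of Parp1. The promoter of Sirt5 holds 1, as do those of Sirt2 and Sirt7, both of Nmnat1 and the second of Sirt6. The second promoter of Sirt3, a gene of low level per kb, holds 4. The promoter of Sirt4 and the first of Sirt3 and Sirt6 hold 0. All 10 genes matched 13 promoters in the table, with 50% to 79% G and C and an observed over expected ratio of CpG of 0.52 (Sirt5) to 1.09 (Sirt1), where the medians of all promoters were 52.7% and 0.384. The upstream part of the Sirt7 promoter lies wholly within annotated exons and is not printed. It holds 2 copies of the ETS core CCGGAAG (8.86% of all promoters hold it, either strand) and 1 match to the core GCGCATGCG bound by NRF1 (1.75%). The first of the promoters of Sirt6 also holds both, with the NRF1 core read on both strands at 1 overlapping site. A match is a match of letters and says nothing of binding.

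Beyond the 10 genes, 68 genes in 6 lists covered the rest of NAD metabolism and partners or substrates of sirtuins. Of these, 57 were tested and none passed the edgeR test. At an unadjusted p under 0.05 stood 3 of the 57, where 13.6% of all genes tested did. DESeq2 and limma voom also called 0. The groups did not overlap in 3 (5.26%), where 12.2% of all genes tested did not. The median log2 fold change was -0.005, with 28 of 57 positive.

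In the list of NAD synthesis and salvage 5 of 9 tested genes were positive (median 0.047). Nmrk2, a nicotinamide riboside kinase typical of skeletal muscle, had 8.86, 7.19 and 4.73 CPM in control and 10.1, 0.523, 3.44 and 1.51 CPM in Sirt7 scKO. Its log2 fold change was -0.80 (SE 0.599, adjusted p in edgeR 0.587), and Sirt7 scKO replicate 1 was the highest of all 7. Nadk2, the mitochondrial NAD kinase, was 17.1 ± 3.77 CPM (SD, n = 3) in control and 19.0 ± 1.79 CPM (SD, n = 4) in Sirt7 scKO (edgeR adjusted p = 0.701).

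Among 18 tested NAD consumers 11 were positive (median 0.016). Art1, an ADP-ribosyltransferase anchored at the surface of muscle fibres, had 21.7, 14.9 and 10.5 CPM in control and 18.99, 1.44, 5.39 and 6.24 CPM in Sirt7 scKO (log2 fold change -0.97 with an SE of 0.523, edgeR adjusted p = 0.445). Its groups overlapped through Sirt7 scKO replicate 1. Without that library the log2 fold change was -1.91 and the edgeR adjusted p 0.0349. In that fit 184 of all genes tested passed, 146 of them lower, against 22 with all libraries. Art1 passed on leaving out no other library. Nmrk2 and Art1 were high and low in much the same libraries as the mature fibre genes. The 12 mature fibre genes summed to 5278, 3428 and 2014 CPM in control and to 3443, 587, 1224 and 1211 CPM in Sirt7 scKO. All 12 had a negative fold change, where 51.3% of all genes tested had a positive one. Of the 12, 9 had an unadjusted p under 0.05, against 13.6% of all genes tested in either direction, and none passed the adjusted threshold. The groups did not overlap in 2 of the 12, where 5.71% of all genes tested stood apart in that direction. The part of fibre content in the levels of Nmrk2 and Art1 was not tested. Sirt7 too was lowest, at 34.1 CPM, in Sirt7 scKO replicate 2, the library with the lowest fibre sum. Control replicate 2 and Sirt7 scKO replicate 1, with fibre sums of 3428 and 3443 CPM, had 70.6 and 39.7 CPM of Sirt7, and control replicate 1, with the highest sum, had 46.2 CPM. The part of fibre content in the Sirt7 level was not tested.

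**Figure D4:**
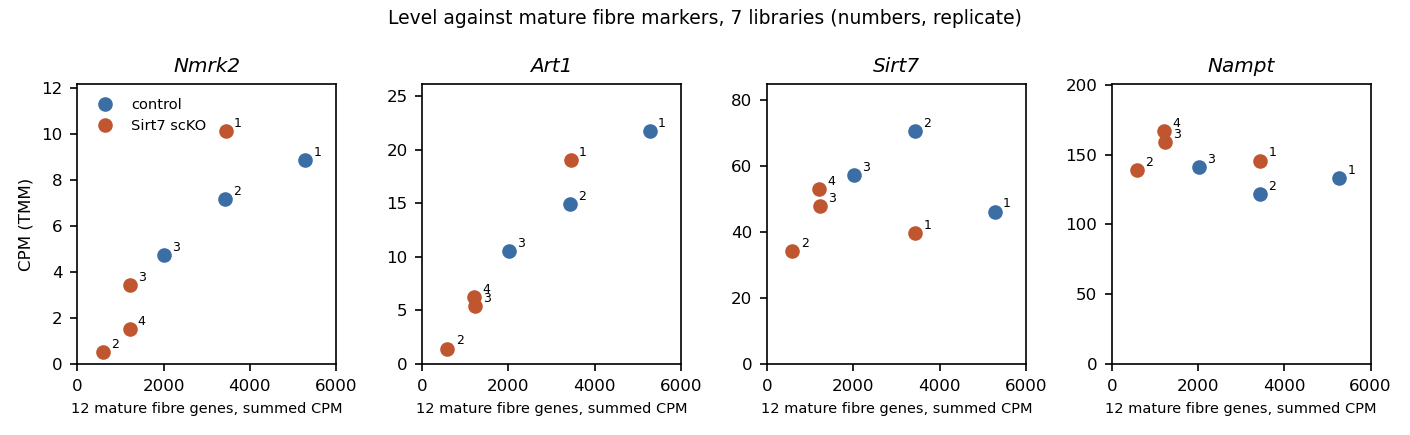
CPM of Nmrk2, Art1, Sirt7 and Nampt (vertical axes from 0) against the summed CPM of 12 mature fibre genes in the same library (horizontal axis), 1 point for each of 3 control and 4 Sirt7 scKO libraries, numbered by replicate. Nmrk2 and Art1 are lowest in Sirt7 scKO replicate 2, which has the lowest fibre sum of 587 CPM, and Sirt7 is lowest there too, at 34.1 CPM. At fibre sums of 3428 and 3443 CPM Sirt7 stands at 70.6 and 39.7 CPM.

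In the other direction within the consumer list stood Parp9, Bst1 and Tnks, whose groups did not overlap. Parp9, a macrodomain member of the PARP family known as an interferon-induced gene, had 101, 94.7 and 97.6 CPM in control and 110.4, 102, 133 and 129 CPM in Sirt7 scKO (log2 fold change 0.28 with an SE of 0.100, edgeR adjusted p = 0.258). Bst1, a surface enzyme of myeloid and stromal cells related to CD38, had 15.3, 17.2 and 15.4 CPM in control and 21.4, 18.1, 21.1 and 18.4 CPM in Sirt7 scKO (log2 fold change 0.30 with an SE of 0.130, edgeR adjusted p = 0.328). Beside it, the 8 neutrophil markers summed to 109.8 to 116 CPM in control and 107 to 171 CPM in Sirt7 scKO, with Ly6g at 0 counts in every library. Mmp9 and Csf3r held the largest parts of this sum. Mmp9 had 41.3 to 43.95 CPM in control and 88.1, 97.7, 98.4 and 40.9 CPM in Sirt7 scKO. Csf3r had 63.1 to 70.2 CPM in control and 54.5 to 64.8 CPM in Sirt7 scKO. S100a8 and S100a9 had at most 38 counts in a library. Of the 4 markers that were tested, 3 were higher at an unadjusted p under 0.05, against 13.6% of all genes tested in either direction. None of the 4 passed, and the part of these markers in the Bst1 level was not tested. Tnks, the gene of tankyrase, was 71.3 ± 1.23 CPM (SD, n = 3) in control and 78.5 ± 4.30 CPM (SD, n = 4) in Sirt7 scKO (log2 fold change 0.14, edgeR adjusted p = 0.498), and was singled out after its values were seen. Parp14, another interferon-induced macrodomain PARP, had 251, 238 and 239 CPM in control and 247, 227, 309 and 351 CPM in Sirt7 scKO, with overlapping groups (log2 fold change 0.22, edgeR adjusted p = 0.480). Cd38, a main NAD glycohydrolase of immune cells, had a log2 fold change of 0.017 (95% interval -0.30 to 0.33; singled out after its values were seen).

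Of 7 tested genes of NAD clearance and transport 2 were positive (median -0.075). Nt5e, the surface nucleotidase CD73, had 1.91, 0.719 and 1.40 CPM in control and 2.81, 3.40, 1.80 and 2.27 CPM in Sirt7 scKO (log2 fold change 0.94 with an SE of 0.394, edgeR adjusted p = 0.321), with overlapping groups and few counts. Nudt13 had a log2 fold change of -0.22 (SE 0.160). In the list of ADP-ribose removal none of 4 tested genes was positive (median -0.216). Adprhl2, an ADP-ribosyl hydrolase, was 37.1 ± 6.21 against 30.8 ± 3.40 CPM (SD, n = 3 and n = 4, edgeR adjusted p = 0.391), and Macrod1, a mitochondrial hydrolase of muscle, was 7.35 ± 3.04 against 5.09 ± 1.94 CPM (edgeR adjusted p = 0.531).

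Partners and substrates of sirtuins lay on both sides of 0, with 7 of 16 tested genes positive (median -0.011). Rps19bp1, which encodes an activator of SIRT1, was 22.4 ± 1.53 against 18.5 ± 2.82 CPM (SD, n = 3 and n = 4; log2 fold change -0.28 with an SE of 0.140, edgeR adjusted p = 0.404). Hif1a, whose protein is a SIRT1 substrate, had a log2 fold change of 0.13 (with an SE of 0.084, edgeR adjusted p = 0.535). Elk4, which encodes the ETS factor that brings SIRT7 to target promoters in human cells, was 19.7 ± 5.12 against 15.2 ± 5.51 CPM (log2 fold change -0.39 with an SE of 0.254, edgeR adjusted p = 0.537). In the kynurenine route, which makes NAD from tryptophan, 3 of 8 genes were tested and all 3 were positive (median 0.286), led by Kmo at 5.70 ± 0.370 against 6.92 ± 1.14 CPM (edgeR adjusted p = 0.578) and Haao at 1.30 ± 0.644 against 1.75 ± 0.461 CPM (edgeR adjusted p = 0.675).

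**Figure D5:**
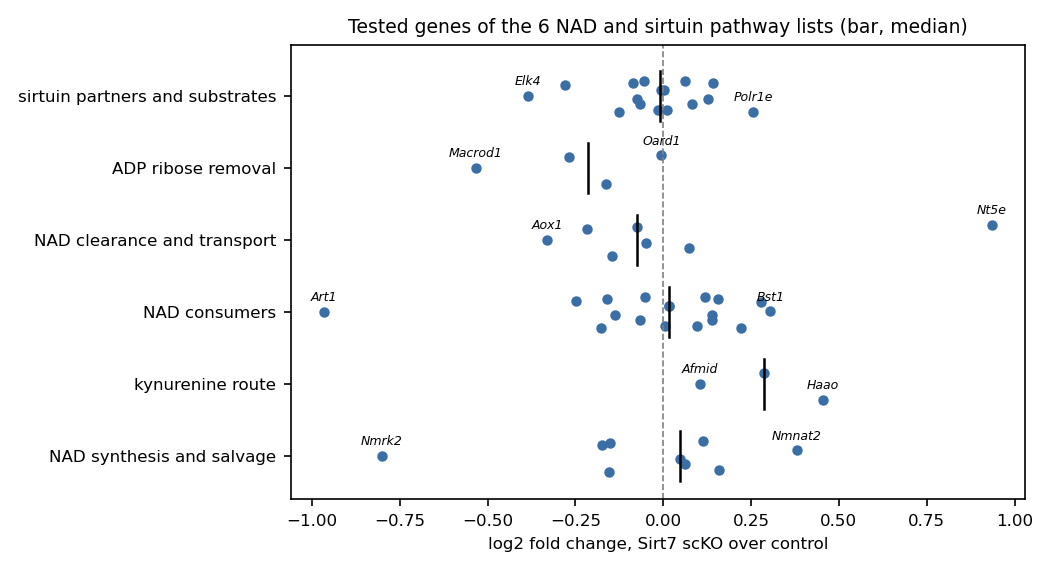
Log2 fold change of Sirt7 scKO over control (horizontal axis) for the 57 tested genes of the 6 lists (rows), with 1 dot per gene, bars for the list median and names at the ends of each list. Art1 (-0.97), Nmrk2 (-0.80) and Nt5e (0.94) lie farthest from 0, none of them past the adjusted threshold.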

How the data were processed

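RNA-seq counts per gene of 7 libraries, 3 control and 4 Sirt7 scKO, were used as the authors deposited them: raw counts, whole numbers in every cell. Library preparation used a NEBNext Ultra RNA kit, per the labels, a kind that keeps no strand. Named in the submitters' processing notes are the build GRCm38 (mm10), featureCounts, Bowtie2 and fastp. For versions, annotation release and the handling of strand and multiply aligned reads, the sources used here give nothing.

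Identifiers were matched without version to GENCODE mouse release 21 (GRCm38), 48058 of 48820, the rest holding 0.25% of counts. For Sirt5 and Nampt the versions differed (ENSMUSG00000054021.5 and ENSMUSG00000020572.7 in the table), so their models may differ from those counted. Genes were kept by filterByExpr of edgeR 4.0.16 (minimum count 10, total 15; R 4.3.3), scaled by TMM and tested by quasi-likelihood (glmQLFTest), with p-values adjusted by Benjamini-Hochberg over all genes tested. SE is the size of the log2 fold change over the square root of F. The method was tested on simulated data. Exact permutation tests were two-sided, over all 35 assignments of 7 libraries to groups of 3 and 4.

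The 10 genes and the lists were chosen with earlier results of these data known. Named were the 10, the 2 to 4 genes of each list with the smallest p, and the 3 nearest to Sirt7 and Nampt. Alternatives were RLE, upper-quartile and no scaling factors, other filters, DESeq2 1.42.0, limma 3.58.1 voom, robust dispersion, a replicate block and leaving out each library; the length of coding transcripts was added after the data were seen. Counting errors leave out variation between animals.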

Additional observations from a re-analysis of the deposited data

Results flagged for a closer look

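Sirt1 had 36.4 CPM in Sirt7 scKO replicate 3, apart from the other 3 Sirt7 scKO libraries, which ran from 28.98 to 29.7 CPM. The gap to the nearest library took up 0.903 of the range of the group, above the 95% critical value of Dixon's test for 4 samples. Among 39 genes examined this was the 1 set apart in this way, and chance sets apart about 1 group in 20.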

How the results depend on the processing

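None of the 10 genes passed the adjusted threshold under any of the 16 alternatives. The Sirt7 log2 fold change stayed negative in all 16, from -0.56 to -0.25, with adjusted p from 0.0576 (no filter) to 0.713, and that of Nampt positive, from 0.15 to 0.26. Genes with fold changes near 0 changed sign. Sirt6 became 0.0026 with upper-quartile factors and 0.0086 with no filter, and ran from -0.0964 to 0.111 when single libraries were left out. Nmnat1 became 0.0004, 0.0059 and, with the replicate block, 0.0287, and ran from -0.0384 to 0.0562 when single libraries were left out. On leaving out single libraries Sirt4 ran from -0.0723 to 0.0157 and Sirt1 from -0.0062 to 0.111. Without a change of sign, Sirt3 then ran from -0.36 to -0.092, Sirt5 from 0.11 to 0.43 and Parp1 from -0.0642 to -0.0075. Of all genes tested 22 passed, against 35 with total counts alone, 149 with DESeq2, 56 with robust dispersion, 585 with no filter and 537 with the replicate block. Without control replicates 1, 2 and 3 in turn 2, 0 and 56 passed, and without Sirt7 scKO replicates 1 to 4 in turn 184, 21, 7 and 330, and the cause was not tested. Of the pathway genes 0 passed, and 1, Art1, passed with no filter (log2 fold change -0.95, adjusted p = 0.0165) or without Sirt7 scKO replicate 1, a range of 0 to 1 without single libraries. Whether replicate numbers pair the libraries could not be decided from 3 pairs. Deviations from group means correlated at 0.123, -0.074 and 0.096 for numbers 1 to 3, and at -0.157 to 0.156 for libraries with different numbers. With the replicate block Sirt7 had a log2 fold change of -0.51 (edgeR adjusted p = 0.0814). Number 4 occurs in Sirt7 scKO alone, so under the block that library adds nothing to the difference between groups. Leaving that library out, with no block, gave -0.52 (edgeR adjusted p = 0.116). Scaling moved the median of all genes by less than 0.1 on the log2 scale. At this depth counting error is 20.4% for Sirt5 and 14.4% for Nmnat1 in a control library, which limits what could be detected for them.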

Other observations

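Several genes of NAD metabolism had too few counts to be tested. In the kynurenine route Ido1, Ido2, Tdo2 and Acmsd, which encode enzymes of tryptophan and kynurenine breakdown, had at most 6 counts in a library and Kynu at most 12. Sarm1, an NAD hydrolase of axons, had 4 to 11 counts per library, and Slc12a8, described as a carrier of nicotinamide mononucleotide, 0 to 5. Cps1, a SIRT5 substrate of liver, had 0 of 43859018 counts, which allows a level of up to 0.0686 CPM over all 7 libraries. Art5, a relative of Art1, had 16, 10 and 8 counts in control and 9, 2, 5 and 2 in Sirt7 scKO, by replicate number.

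Pseudogenes that align over at least 80% of their length to a transcript of one of the 10 genes had 0 counts in every library, among them Gm49061 with 90.5% identity to Parp1.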
